A study of Mus musculus with 20 samples.

Results

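A set of 10 genes typical of neutrophils, S100a8, S100a9, Lcn2, Camp, Ngp, Ltf, Retnlg, Cxcr2, Mpo and Elane, was followed through 20 RNA-seq libraries of mouse skeletal muscle and its macrophages. They were chosen by gene symbol, as markers of neutrophils, and all 10 were found among the 16762 genes present in all 4 deposited expression tables. Neutrophils are short-lived white cells of the blood that enter damaged tissue within hours. They carry ready-made proteins in granules that are filled one after another while the cell matures in the bone marrow. Messages for the first granules (azurophil granules: Mpo, myeloperoxidase, and Elane, neutrophil elastase) are made in promyelocytes. Messages for the secondary (specific) granules (Ltf, lactoferrin; Camp, the precursor of the cathelicidin peptide; Ngp, neutrophilic granule protein; Lcn2, the iron-scavenging lipocalin) are made in myelocytes and metamyelocytes. The mature cell has little of most of these messages, but keeps those for S100a8 and S100a9 and for the chemokine receptor Cxcr2, through which it leaves the marrow and moves toward CXC chemokines. S100a8 and S100a9 pair to form calprotectin, a calcium- and zinc-binding alarmin that acts on Tlr4. Retnlg is a resistin-like secreted protein of mouse neutrophils.

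The study compared macrophages and muscle from 4 experiments. Resident macrophages were sorted from uninjured skeletal muscle of male Cx3cr1-GFP mice as CD45+ CD11B+ LY6G- F4/80+ MERTK+ cells and divided by MHCII and by GFP into 4 gates, with 1 library each. Infiltrating cells were PI- CD45+ CD11B+ LY6G/SIGLECF- GFP+ cells from the damaged tibialis anterior (TA) of the wild-type partner in female WT/GFP parabiotic pairs, so that GFP marked cells of the partner that had come through the shared circulation, and infiltrating cells of the WT mouse itself were outside the gate. They were taken on day 2 (1 library), day 4 (2 libraries) and day 6 (1 library). Dystrophic muscle was whole TA of 8-month-old female DMDmdx mice fed for 6 months with PLX73086, an inhibitor of the macrophage growth factor receptor CSF1R, at 200 mg per kg of AIN-76A diet (n = 3) or with control diet (n = 3). DMDmdx mice lack functional dystrophin. PLX replicate 1 and control replicates 1 and 2 also carried the PDGFRaEGFP reporter. Injured muscle was 1 damaged TA of male C57BL/6J mice that had eaten PLX73086 diet or control diet for 3 weeks, with 3 days of withdrawal, taken 12 h (n = 1 for each diet) or 18 h (n = 2 for each diet) after injury. PLX stands for the PLX73086 diet in what follows. The sorting gates removed LY6G+ cells, the usual neutrophil gate, from both sorted experiments, while whole muscle held every cell type.

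The 10 genes are protein coding and lie on 7 chromosomes (GENCODE vM21 annotation of mm10). S100a8 (chr3:90668978-90670035, plus strand, 3 exons) and S100a9 (chr3:90692632-90695721, minus strand, 3 exons) are neighbours, with 22597 bases between them. Camp (chr9:109847379-109849617, minus strand), Ngp (chr9:110419747-110423012, plus strand) and Ltf (chr9:111019271-111042767, plus strand, 17 exons) lie on chromosome 9, with 570130 bases between Camp and Ngp and 596259 between Ngp and Ltf. Lcn2 is at chr2:32384633-32388252 (minus strand), Retnlg at chr16:48872621-48874496 (plus strand), Cxcr2 at chr1:74153989-74161246 (plus strand), Mpo at chr11:87793581-87804413 (plus strand) and Elane at chr10:79886247-79888215 (plus strand). The deposited table gave Elane a locus that 49 gene symbols share, so its reads may have been divided differently from those of the other 9.

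Promoter sequences are shown for the 2 alarmin genes, which were high in injured muscle, and for Ngp and Camp, which were not. Each is the 250 bases before the RefSeq start on GRCm38.p6 (the assembly called mm10), in the direction of transcription. Capitals mark matches on either strand to TTGCNNAA, to GAGGAAG and to TATAAA. The first is a short form of the C/EBP site, the second a form of the site of the myeloid factor PU.1 and the third the TATA box. The S100a8 stretch is chr3:90668821-90669070 (plus strand), the S100a9 stretch chr3:90695722-90695971 (minus strand), the Ngp stretch chr9:110419558-110419807 (plus strand) and the Camp stretch chr9:109849457-109849706 (minus strand).
S100a8: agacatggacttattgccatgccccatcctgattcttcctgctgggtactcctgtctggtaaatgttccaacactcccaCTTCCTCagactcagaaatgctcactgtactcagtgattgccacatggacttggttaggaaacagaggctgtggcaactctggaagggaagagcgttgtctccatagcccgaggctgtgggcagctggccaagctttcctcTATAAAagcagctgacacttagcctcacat
S100a9: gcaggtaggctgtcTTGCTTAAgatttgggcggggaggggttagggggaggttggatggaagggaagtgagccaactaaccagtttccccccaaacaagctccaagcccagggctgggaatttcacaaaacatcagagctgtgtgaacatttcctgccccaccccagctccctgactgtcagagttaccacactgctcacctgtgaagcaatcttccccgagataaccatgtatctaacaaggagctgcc
Ngp: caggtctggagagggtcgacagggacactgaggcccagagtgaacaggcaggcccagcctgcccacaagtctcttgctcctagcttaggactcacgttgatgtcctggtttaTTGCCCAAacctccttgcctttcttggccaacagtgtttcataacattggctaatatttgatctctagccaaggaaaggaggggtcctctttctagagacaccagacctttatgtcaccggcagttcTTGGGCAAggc
Camp: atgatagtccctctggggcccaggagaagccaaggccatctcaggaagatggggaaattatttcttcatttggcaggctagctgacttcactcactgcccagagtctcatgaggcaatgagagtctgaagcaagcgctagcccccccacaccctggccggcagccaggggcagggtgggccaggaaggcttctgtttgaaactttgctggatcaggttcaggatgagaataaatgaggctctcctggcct
TTGCNNAA was found in 5 of the 10 stretches (S100a9, Lcn2, Ngp, Ltf and Retnlg), against 9.56% of 32851 RefSeq promoters of the same length. Ngp held it 2 times, the nearer 11 to 4 bases before the start. GAGGAAG was found in S100a8, Lcn2, Mpo and Elane, 4 of 10, against 10.6% of promoters, and TATAAA in S100a8 alone, 30 to 25 bases before the start, against 12.4%. Camp held none of the 3 motifs. S100a8 and S100a9, whose levels are given together below, shared no motif of the 3.

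Levels are in FPKM as deposited, a unit that divides a gene's fragments by its transcript length and by how many fragments the library had mapped. The 4 tables were normalized separately, so levels are set beside each other between tables with no test. All tables but that of infiltrating cells hold 0.01 as their lowest value, called the floor here. Depth is known only for the infiltrating cells, at 25953400 to 34655400 alignments per library. From the smallest values, the shallowest library of a table had 0.641 times the depth of the resident MHCII- GFP- library, or 0.655 times that of injured 18 h PLX replicate 1, in its own table. Nothing in the labels says whether the muscles of a group came from separate litters or cages, and p-values measure the spread between the libraries. In the 4 resident gates macrophage markers summed to 8268 to 10951 FPKM over 10 genes, against 80.9 or less for 9 monocyte markers in the 2 GFP+ gates and 89.5 or less in the 2 GFP- gates. One sorted library stood apart from its replicate in the 10 neutrophil genes. Day 4 replicate 1 summed to 47.8 FPKM over them and day 4 replicate 2 to 1.78 FPKM, and results for infiltrating cells are given for each.

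**Figure D1:**
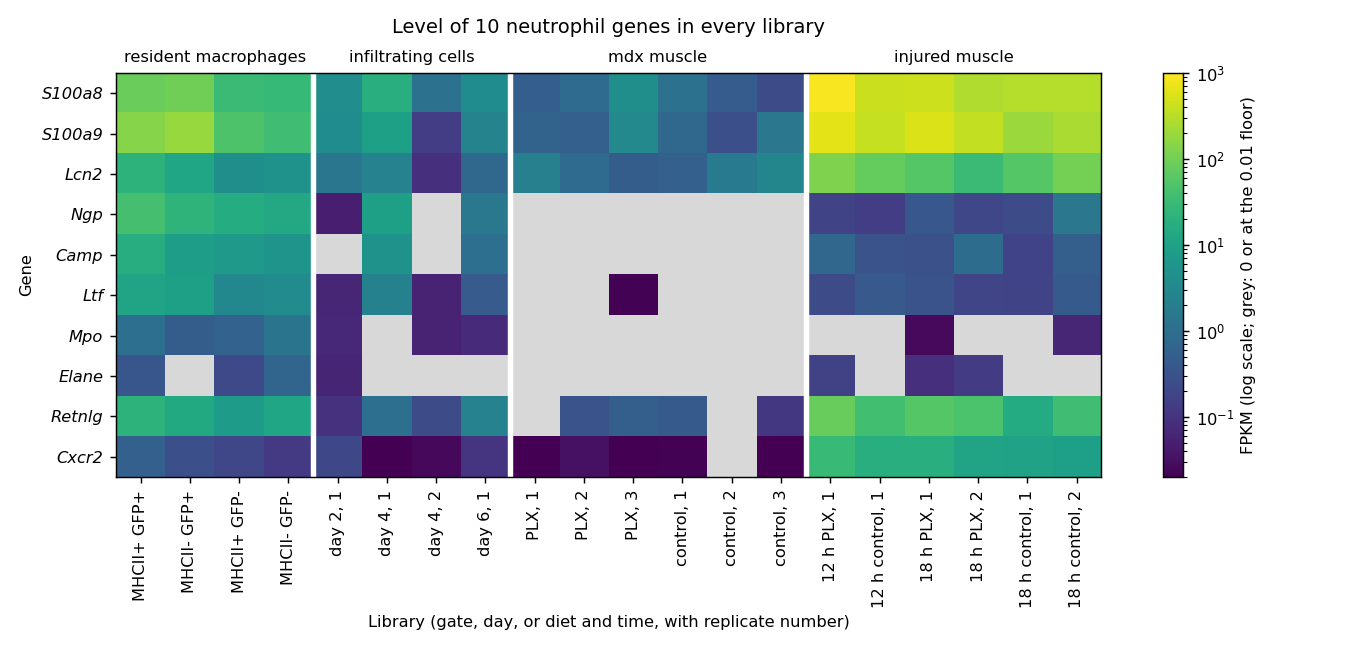
FPKM of the 10 genes (rows) in all 20 libraries (columns), with colour on a log scale and grey where a gene was listed at 0 or at the 0.01 floor. S100a8 and S100a9 were between 199 and 901 FPKM in injured muscle, while Ngp, Camp and Ltf were higher in the resident macrophage gates than in injured muscle. The share of all genes higher in the gates was not counted.

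Summed over the 10 genes, the levels were 584 to 1786 FPKM in injured muscle, 106 to 354 FPKM in resident macrophages, 1.78 to 47.8 FPKM in infiltrating cells and 2.45 to 8.69 FPKM in mdx muscle. The ranges of injured muscle and resident macrophages did not overlap each other or those of the other 2 experiments, whereas infiltrating cells and mdx muscle overlapped. The share of all genes with ranges apart between experiments was not counted.

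The alarmins were the most abundant of the 10 in both injured muscle and resident macrophages. S100a8 was between 275 and 901 FPKM in injured muscle, with a median of 361 over 6 libraries, and S100a9 between 199 and 646 FPKM, with a median of 378. In the 12 h PLX library S100a8 ranked 52nd from the highest of 24313 genes and S100a9 ranked 94th. Retnlg (15.7 to 80.5 FPKM), Lcn2 (31.8 to 126 FPKM) and the receptor Cxcr2 (9.10 to 30.97 FPKM) were also well above the floor in every injured library. Injured muscle thus held high levels of 5 of the 10, the alarmin pair, the lipocalin, the resistin-like protein and the chemokine receptor.

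The other 5, the granule genes Ngp, Camp, Ltf, Mpo and Elane, were at most 1.44 FPKM in injured muscle, while Lcn2, a secondary granule gene too, was among the high ones. Ngp was between 0.140 and 1.44 FPKM, Camp between 0.177 and 0.925 FPKM and Ltf between 0.182 and 0.436 FPKM, each detected in 6 of 6 libraries. Mpo was at the floor in 4 of 6 injured libraries and at most 0.0629 FPKM, and Elane was at the floor in 3 of 6 and at most 0.162 FPKM.

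Resident macrophages had another mix. Ngp was 40.9 FPKM in the MHCII+ GFP+ gate, 16.04 in MHCII+ GFP-, 22.8 in MHCII- GFP+ and 13.7 in MHCII- GFP-, and all 4 values exceeded the highest of injured muscle. Camp (5.31 to 17.2 FPKM) and Ltf (3.08 to 11.1 FPKM) likewise lay above every injured library. Mpo reached 1.05 FPKM in MHCII+ GFP+ and 1.29 FPKM in MHCII- GFP- cells and was detected in all 4 gates, and Elane, at 0.218 to 0.684 FPKM, was detected in 3 of the 4 and listed at the floor in MHCII- GFP+. Cxcr2 was the reverse, at 0.127 to 0.557 FPKM in every gate, below the lowest injured library. How many of all genes lay apart between the gates and injured muscle was not counted, so these orders only describe these genes.

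Ratios within 1 library do not depend on how a table was scaled. For every 100 FPKM of S100a8 and S100a9 together, Ngp, Camp and Ltf together made 30.3 FPKM in the MHCII+ GFP+ gate, 31.8 in MHCII+ GFP-, 14.1 in MHCII- GFP+ and 35.4 in MHCII- GFP-. In injured muscle the same ratio was between 0.0732 and 0.435 FPKM per 100. In infiltrating cells it lay both below and above the gates. It was 1.41 on day 2, 61.8 and 4.24 in day 4 replicates 1 and 2, and 47.5 on day 6. Cxcr2 went the other way, at 0.0971 to 0.243 per 100 FPKM of the alarmins in the gates and 1.64 to 2.24 in injured muscle. Neither pair of ranges, gates against injured muscle, overlapped. How often ratios of other genes lay apart in this way was not counted. The ratio of S100a9 to S100a8 was 1.30 to 2.04 in the gates and 0.659 to 1.32 in injured muscle, ranges that overlapped slightly. Lcn2, also a secondary granule gene, did not separate them, at 4.25 to 9.41 FPKM per 100 FPKM of the alarmins in the gates and 4.97 to 18.6 in injured muscle.

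**Figure D2:**
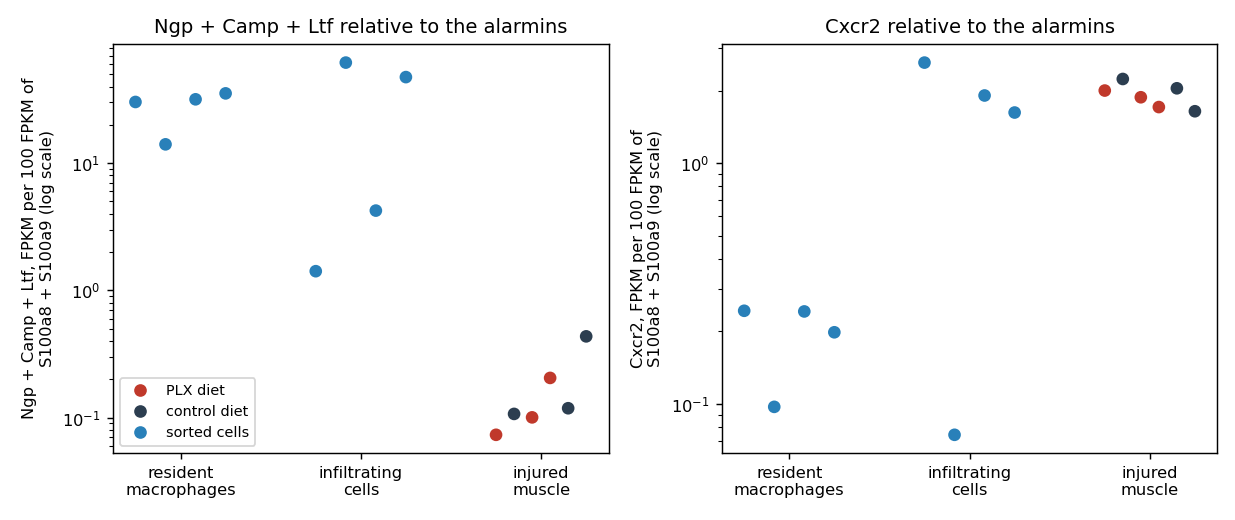
Ngp, Camp and Ltf together (left) and Cxcr2 (right) in FPKM per 100 FPKM of S100a8 and S100a9, on log scales, with 1 point per library. Within an experiment points run in the order GFP+ gates then GFP- gates, day 2 to day 6, or 12 h then 18 h with PLX diet in red and control diet in black. The 6 injured libraries sit below all resident gates on the left, at 0.435 or less, and above all of them on the right, at 1.64 or more. How often ratios of other genes lay apart was not counted.

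Among resident macrophages, S100a8, S100a9, Lcn2, Ngp, Camp, Ltf, Retnlg and Cxcr2 were higher in both gates positive for GFP than in both negative ones. How many of all genes had this order was not counted, so it only describes these genes. In these mice GFP reports the fractalkine receptor gene Cx3cr1. Mpo was 1.05 FPKM in MHCII+ GFP+ and 0.613 FPKM in MHCII+ GFP- cells, but 0.480 FPKM in MHCII- GFP+ and 1.29 FPKM in MHCII- GFP- cells. Elane was likewise higher with GFP among MHCII+ cells, at 0.358 and 0.218 FPKM in GFP+ and GFP- cells, and lower among MHCII- cells, at the floor in GFP+ and 0.684 FPKM in GFP- cells. S100a9 was 143 FPKM in MHCII+ GFP+ and 49.0 FPKM in MHCII+ GFP- cells, and 192 FPKM in MHCII- GFP+ and 36.2 FPKM in MHCII- GFP- cells. S100a8 was 86.1 FPKM in MHCII+ GFP+ and 32.5 FPKM in MHCII+ GFP- cells, and 94.2 FPKM in MHCII- GFP+ and 27.9 FPKM in MHCII- GFP- cells. Both alarmins differed more between GFP gates than between MHCII gates.

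With 1 library per gate there is no test, and genes were described by a size rule, a change past 2-fold in FPKM + 1 among genes averaging at least 1 FPKM. Cxcr2, Mpo and Elane did not reach that average, and 7 of the 10 genes did. GFP+ over GFP-, 7 of these 7 were past 2-fold higher in the MHCII+ gates, where 0.716% of 11872 genes were higher and 0.741% lower. The log2 differences were 2.05 for Lcn2, 1.57 for Ltf, 1.52 for S100a9, 1.38 for S100a8, 1.36 for Retnlg, 1.30 for Ngp and 1.23 for Camp. In the MHCII- gates 4 of 7 were past 2-fold higher, against 2.51% of all genes, and 0 were past 2-fold lower, against 2.32%. These were S100a9 at 2.37, S100a8 at 1.72, Ltf at 1.12 and Lcn2 at 1.07, while Ngp at 0.70, Camp at 0.55 and Retnlg at 0.26 were positive but within 2-fold. The alarmins therefore differed by GFP in both pairs of gates, and the granule genes Ngp and Camp past 2-fold in the MHCII+ pair alone, a contrast that has no replicate.

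MHCII+ over MHCII-, none of the 7 was past 2-fold in either direction. The background was 2.28% higher and 1.42% lower among GFP+ gates, and 1.1% higher and 0.615% lower among GFP- gates. Lcn2 was 21.5 FPKM in MHCII+ GFP+ and 12.2 FPKM in MHCII- GFP+ cells, but 4.44 FPKM in MHCII+ GFP- and 5.26 FPKM in MHCII- GFP- cells. Retnlg was 21.4 FPKM in MHCII+ GFP+ and 14.3 FPKM in MHCII- GFP+ cells, and 7.75 FPKM in MHCII+ GFP- and 11.7 FPKM in MHCII- GFP- cells. For both genes the sign of the MHCII difference depended on the GFP gate.

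**Figure D3:**
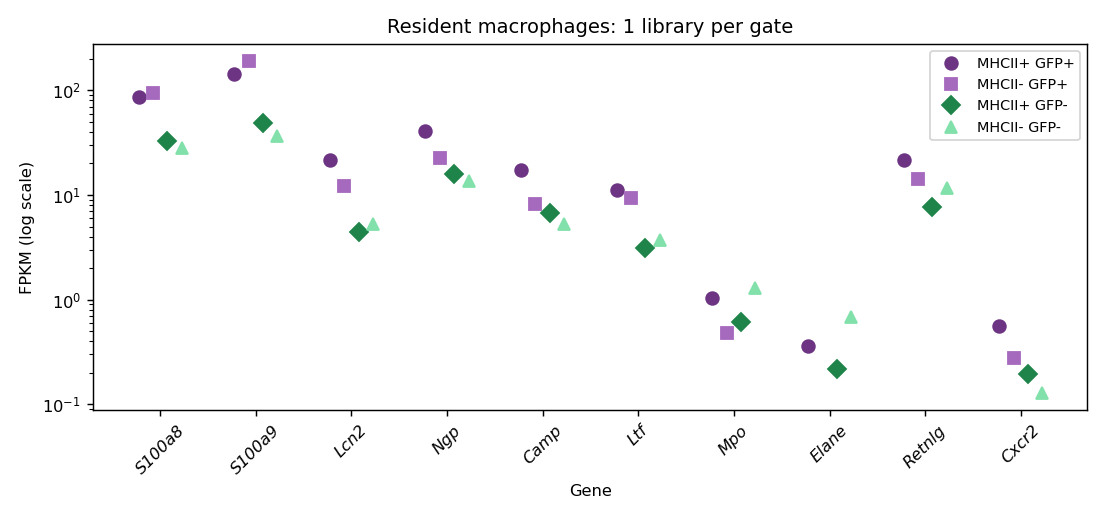
FPKM of the 10 genes in the 4 resident macrophage gates on a log scale, with 1 library per gate and the Elane value at the floor left out. For S100a8, S100a9, Lcn2, Ngp, Camp, Ltf, Retnlg and Cxcr2 both GFP+ gates lie above both GFP- gates. The share of all genes in this order was not counted.

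The 12 other neutrophil genes, a list that includes the G-CSF receptor Csf3r, the formyl peptide receptors Fpr1 and Fpr2 and the collagenase Mmp8, summed higher with GFP in the MHCII+ pair alone when Mmp9 was included, and in both pairs without it. With it they summed to 179 FPKM in MHCII+ GFP+ and 156 FPKM in MHCII+ GFP- cells, and to 81.0 FPKM in MHCII- GFP+ and 93.9 FPKM in MHCII- GFP- cells. Most of that sum was Mmp9, a gelatinase also made by other cells, at 118, 114, 42.1 and 60.1 FPKM in those 4 gates. The 11 genes without Mmp9 summed to 60.7 FPKM in MHCII+ GFP+ and 42.2 FPKM in MHCII+ GFP- cells, and to 38.9 FPKM in MHCII- GFP+ and 33.7 FPKM in MHCII- GFP- cells. Within the list Fpr1 was 2.25 FPKM in MHCII+ GFP+ and 0.847 FPKM in MHCII+ GFP- cells, and 1.19 FPKM in MHCII- GFP+ and 0.444 FPKM in MHCII- GFP- cells, the GFP pattern of the alarmins at a low level. Fpr1 and Mmp9 were singled out after their values were seen. The share of all genes with the order of Fpr1 was not counted. Of other cell types, 8 red cell markers summed to 203 FPKM in MHCII+ GFP+ and 600 FPKM in MHCII+ GFP- cells, and to 133 FPKM in MHCII- GFP+ and 332 FPKM in MHCII- GFP- cells, so they were lower in both GFP+ gates, where the alarmins were higher. Mast cell markers (4 genes) summed to 53.6 FPKM in MHCII+ GFP+ and 18.6 FPKM in MHCII+ GFP- cells, and to 4.998 FPKM in MHCII- GFP+ and 7.06 FPKM in MHCII- GFP- cells. The part of these cell types in the GFP difference was not tested.

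Cells that had infiltrated damaged muscle held little of the 10 genes. S100a8 was 4.09 FPKM on day 2, 18.2 and 1.16 FPKM in the 2 libraries of day 4, and 3.81 FPKM on day 6. S100a9 was 3.82 FPKM on day 2, 9.22 and 0.144 FPKM on day 4, and 2.49 FPKM on day 6. The day 4 libraries enclosed the values of both other days, so no course over the days could be read for the alarmins.

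The secondary granule genes split the day 4 libraries further. Ngp was 0.0493 FPKM on day 2, 9.34 and 0 FPKM on day 4, and 1.50 FPKM on day 6. Camp was listed at 0 on day 2, at 5.28 and 0 FPKM on day 4, and at 1.04 FPKM on day 6. Ltf was 0.0626 FPKM on day 2, 2.31 and 0.0552 FPKM on day 4, and 0.454 FPKM on day 6. Day 4 replicate 1 was the highest of the 4 libraries and replicate 2 the lowest, or tied at 0, for all 3 genes.

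Lcn2 had the same order on day 4, at 2.47 and 0.0887 FPKM, with 1.41 FPKM on day 2 and 0.729 FPKM on day 6. Retnlg was 0.0941 FPKM on day 2, 1.02 and 0.249 FPKM on day 4, and 2.45 FPKM on day 6, the highest of the 4. Cxcr2 was at most 0.207 FPKM, on day 2, and at 0.0204 and 0.0249 FPKM on day 4. Mpo was at most 0.0733 FPKM, and Elane was listed at 0 in 3 of 4 libraries. Per 100 FPKM of the alarmins, Cxcr2 made 2.62 FPKM in the day 2 library and 1.62 FPKM in that of day 6. In day 4 replicates 1 and 2 this ratio was 0.0743 and 1.91. S100a8 and S100a9 together were 27.4 FPKM in replicate 1 and 1.30 FPKM in replicate 2. Cxcr2 itself was very low and nearly equal in both, so their ratios differed mainly through the alarmins.

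By the size rule, required against both day 4 libraries, 0 of 5 genes reaching the average were past 2-fold higher or lower on day 4 over day 2, where 3.91% of 9805 genes were higher and 2.79% lower, and 0 of 5 on day 6 over day 4, where 0.775% were higher and 0.102% lower. The direction depended on which day 4 library was kept. In each setting the average was still taken over all 4 libraries. Lcn2, Camp and Ngp reached it only with day 4 replicate 1 counted. For them the counts below follow in part from that filter, so the shares of all genes are no measure. Without day 4 replicate 1, 3 of 5 (S100a8, S100a9 and Lcn2) were past 2-fold lower on day 4 over day 2, where 8.09% of all genes were lower and 7.2% higher. In that setting 4 of 5, all but Lcn2, were past 2-fold higher on day 6 over day 4, where 1.94% were higher and 0.5% lower. Without day 4 replicate 2, those same 4 were past 2-fold higher on day 4 over day 2, where 4.74% were higher and 3.24% lower. On day 6 over day 4, 5 of 5 were then past 2-fold lower, where 0.367% were lower and 1.47% higher. The other 12 neutrophil genes did not separate the day 4 libraries in this way, with sums of 62.6 FPKM in replicate 1 and 52.3 FPKM in replicate 2, against 173 FPKM on day 2 and 68.3 FPKM on day 6. On day 2 these included Csf3r at 31.9 FPKM and the neutrophil antigen Cd177 at 27.1 FPKM, whereas S100a8 and S100a9 stayed below 5 FPKM there. Monocyte markers (9 genes) summed to 3362 FPKM on day 2, 624 to 715 FPKM on day 4 and 556 FPKM on day 6.

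In mdx muscle after 6 months of diet, all 10 genes were low. None of the 3 that could be tested differed beyond the spread. S100a8 was 0.507, 0.876 and 4.30 FPKM in PLX muscles, against 1.19, 0.461 and 0.244 FPKM in control muscles. S100a9 was 0.623, 0.543 and 3.29 FPKM in PLX muscles, against 0.735, 0.284 and 1.48 FPKM in control muscles. In both genes PLX replicate 3 was by far the highest PLX value, and the groups overlapped.

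Lcn2 was 2.18, 0.887 and 0.496 FPKM in PLX muscles, against 0.551, 1.64 and 2.81 FPKM in control muscles, with PLX replicate 3 the lowest of the 6 here. The groups overlapped in all 3 genes, while 11.4% of all genes had every PLX library above every control and 11.6% had every one below. Retnlg was at the floor, 0.323 and 0.524 FPKM in PLX muscles, against 0.437 FPKM, the floor and 0.118 FPKM in control muscles. Cxcr2 was at most 0.0319 FPKM in PLX and 0.0214 FPKM in control muscles, and Ltf was seen in PLX replicate 3 alone, at 0.0215 FPKM. Camp, Ngp, Mpo and Elane were at the floor in 6 of 6 libraries. Dystrophic muscle of this age held alarmin and lipocalin messages near 1 FPKM and little or nothing of the granule genes.

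Only S100a8, S100a9 and Lcn2 averaged at least 1 FPKM and were tested among 10197 genes with limma on log2(FPKM + 1). S100a8 and S100a9 reached that average only with PLX replicate 3 counted. The log2 difference between PLX and control diet was 0.64 ± 0.47 (SE) for S100a8 (adjusted p = 0.533), 0.32 ± 0.42 for S100a9 (adjusted p = 0.736) and -0.27 ± 0.38 for Lcn2 (adjusted p = 0.759). With limma 0 of the 3 passed an adjusted p under 0.05, where 0.127% of all genes were higher and 0.0294% lower (0.157%, or 16 genes, either way), and 1648 genes had an unadjusted p under 0.05. The number passing was 0 when any one of PLX replicates 2 and 3 and control replicates 1 and 2 was dropped. It was 5 after PLX replicate 1 was dropped and 120 after control replicate 3 was. None of the 12 other neutrophil genes and none of 6 azurophil granule and progenitor genes reached the average. Of 2 protease inhibitors of neutrophils that did, Serpinb1a, which inhibits elastase, was higher by 1.95 ± 0.16 (adjusted p = 0.0235), at 39.2, 32.6 and 34.5 FPKM in PLX muscles against 7.45, 7.25 and 10.9 FPKM in control muscles. Of 7 other S100 genes, S100a13 was higher by 1.15 ± 0.13 (adjusted p = 0.0352). Its levels were 51.4, 67.7 and 65.7 FPKM in PLX muscles, against 24.5, 26.9 and 29.8 FPKM in control muscles. Macrophage markers, whose growth factor receptor the diet inhibits, summed to 24.3 to 64.4 FPKM in PLX muscles and 34.6 to 223 FPKM in control muscles, and 0 of 7 tested passed.

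Injured muscle after earlier PLX diet held more S100a9 than injured muscle after control diet. At 12 h S100a9 was 646 FPKM in the PLX muscle, against 393 FPKM in the control muscle. At 18 h it was 556 and 364 FPKM in PLX muscles, against 198.6 and 251.3 FPKM in control muscles. Every PLX library was above every control library of its time, although the 18 h PLX replicate 2 lay below the 12 h control.

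The diet difference, fitted over both times with hours as a term, was 0.91 ± 0.22 on the log2 scale for S100a9 (limma, adjusted p = 0.0474). It was the single one of 5 tested members past the threshold, where 5.42% of 11578 genes were higher and 6.23% lower (11.7% either way). The value is close to the threshold and all 4 of the 18 h libraries carry it. The adjusted p was 0.158 without 18 h PLX replicate 1, 0.0831 without 18 h PLX replicate 2, 0.152 without 18 h control replicate 1 and 0.135 without 18 h control replicate 2, with differences of 0.71 to 1.06 over all libraries left out in turn. With no filter on low values it was 0.203. S100a9 was above control in PLX muscle in all 14 settings and passed in 8 of them. These 4 libraries bore on the whole comparison, since 1349 genes passed with all libraries, against 0 without 18 h PLX replicate 1, 180 without 18 h PLX replicate 2, 6 without 18 h control replicate 1 and 8 without 18 h control replicate 2. Calls of other genes in injured muscle below rest on the same libraries.

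Its partner S100a8 was 901 FPKM in the PLX muscle at 12 h, against 420 FPKM in the control muscle. At 18 h it was 439 and 275 FPKM in PLX muscles, against 301 and 303 FPKM in control muscles. The 12 h PLX library was the highest of the 6, and at 18 h the groups overlapped. The log2 difference over both times was 0.50 ± 0.27 (adjusted p = 0.258). The ratio of S100a9 to S100a8 was 0.717 in the PLX muscle and 0.935 in the control muscle at 12 h. At 18 h it was 1.27 and 1.32 in PLX muscles, against 0.659 and 0.830 in control muscles. The 2 subunits of calprotectin thus differed in their ratio between diets in opposite directions at the 2 times, with 1 library per diet at 12 h.

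Retnlg was 80.5 FPKM in the PLX muscle at 12 h, against 38.1 FPKM in the control muscle. The 18 h values were 58.2 and 46.6 FPKM in PLX muscles, against 15.7 and 36.5 FPKM in control muscles. All 3 PLX libraries were above all 3 controls, as were those of 14.1% of all genes tested, while 16.3% had all PLX libraries below. The difference was 1.08 ± 0.29, the largest of the 5 genes, and missed the threshold (adjusted p = 0.0617). It passed where only genes averaging at least 5 FPKM were tested (adjusted p = 0.0498) and after libraries were rescaled to the same column sum (1.43, adjusted p = 0.0104).

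Cxcr2 was 30.97 FPKM in the PLX muscle at 12 h, against 18.2 FPKM in the control muscle. The values of 18 h were 18.7 and 10.9 FPKM in PLX muscles, against 10.2 and 9.10 FPKM in control muscles. PLX was above control at each time, and the difference of 0.60 ± 0.20 did not pass (adjusted p = 0.102), except after rescaling (0.94, adjusted p = 0.0388). At 18 h alone S100a9, Retnlg and Cxcr2 had both PLX libraries above both controls, an arrangement shown by 32.4% of all genes.

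Lcn2 did not follow the other 4. At 12 h it was 126 FPKM in the PLX muscle, against 76.9 FPKM in the control muscle. At 18 h it was 57.2 and 31.8 FPKM in PLX muscles, against 57.4 and 103 FPKM in control muscles. PLX was the higher group at 12 h and the lower at 18 h, where both PLX libraries were below both controls, as in 32.6% of all genes. Replicate 1 was nearly equal in the diets at 18 h, at 57.2 FPKM with PLX and 57.4 FPKM with control. The lower level thus rested on replicate 2 of each diet. Over both times the difference was -0.32 ± 0.40 (adjusted p = 0.625). The lipocalin is also made outside neutrophils, by epithelial and other tissue cells under inflammation.

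The granule genes were too low to be tested. Camp was 0.714 FPKM in the PLX muscle at 12 h and 0.293 and 0.925 FPKM in PLX muscles at 18 h, against 0.323 FPKM at 12 h and 0.177 and 0.533 FPKM at 18 h in control muscles. Ngp was 0.184 FPKM at 12 h and 0.384 and 0.197 FPKM at 18 h in PLX muscles, against 0.140 FPKM at 12 h and 0.234 and 1.44 FPKM at 18 h in control muscles. Ltf was 0.235 FPKM at 12 h and 0.321 and 0.188 FPKM at 18 h in PLX muscles, against 0.405 FPKM at 12 h and 0.182 and 0.436 FPKM at 18 h in control muscles. The groups overlapped in all 3 genes. Elane was 0.162, 0.0843 and 0.131 FPKM in the 3 PLX muscles, against the floor in all 3 control muscles. These values are near the floor, and Elane has the deposited locus that 49 symbols share. Of all genes tested, which Elane was too low to be among, 14.1% had all PLX libraries above all controls. Mpo was seen in 1 PLX and 1 control library of 18 h, at 0.0267 FPKM in PLX and 0.0629 FPKM in control muscle.

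**Figure D4:**
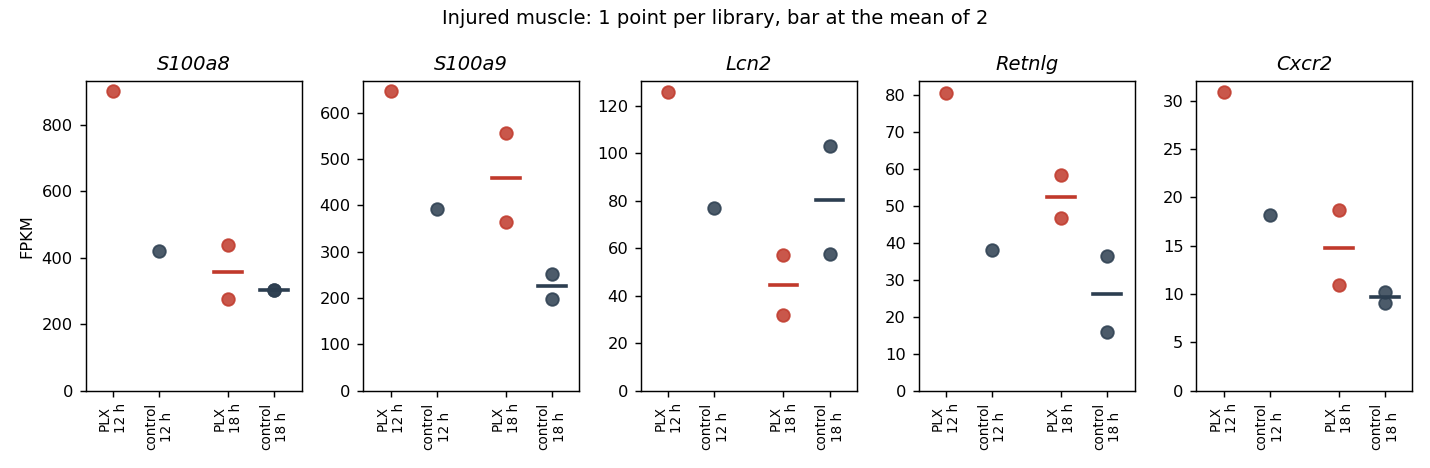
FPKM of the 5 genes that averaged at least 1 FPKM in injured muscle, with 1 point per library, PLX diet in red, control diet in black and a bar at the mean where there are 2 libraries. S100a9, Retnlg and Cxcr2 are higher with PLX at both times, and Lcn2 is higher with PLX at 12 h and lower at 18 h.

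Of the 5 tested genes 4 had a positive difference, with a median of 0.60, while 48.3% of all genes were positive, with a median of -0.018. Of 12 other neutrophil genes tested, 12 differences were positive, with a median of 0.80. Of these 5 rose past the threshold, where 5.42% of all genes did, and 7 did not pass. Among these were the formyl peptide receptors Fpr1 (1.26 ± 0.15, adjusted p = 0.0131) and Fpr2 (1.13 ± 0.18, adjusted p = 0.0188), the collagenase Mmp8 (1.28 ± 0.24, adjusted p = 0.0255) and the neutrophil antigen Cd177 (0.78 ± 0.18, adjusted p = 0.0401). Fpr1 was 9.83 FPKM at 12 h and 10.7 and 9.55 FPKM at 18 h in PLX muscles, against 4.52 FPKM at 12 h and 3.49 and 2.93 FPKM at 18 h in control muscles, with no overlap. Csf3r (0.39, adjusted p = 0.190) and Mmp9 (0.17, adjusted p = 0.602) did not pass.

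Of the azurophil granule and progenitor genes Prtn3, which encodes proteinase 3, rose by 1.98 ± 0.37 (adjusted p = 0.0255). It was 6.00 FPKM at 12 h and 11.2 and 15.5 FPKM at 18 h in PLX muscles, against 3.12 FPKM at 12 h and 1.15 and 1.60 FPKM at 18 h in control muscles. The other gene of that list tested, Cebpe, a transcription factor of granule maturation, did not pass, and Ctsg, Ms4a3, Gfi1 and Fcnb were too low. In PLX muscle Prtn3 was above Mpo and Elane, products of the same granule, by level per length. Prtn3 and Elane stand in the same locus of 49 symbols in the deposited table.

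Of 6 neutrophil chemoattractants tested, Cxcl3 (0.92 ± 0.16, adjusted p = 0.0230) and Ppbp (1.74 ± 0.31, adjusted p = 0.0240), both of which encode ligands of the receptor Cxcr2, rose. Ppbp, also a platelet protein, was 221 FPKM at 12 h and 117 and 151 FPKM at 18 h in PLX muscles, against 32.95 FPKM at 12 h and 49.1 and 62.4 FPKM at 18 h in control muscles. Cxcl1, Cxcl2, Cxcl5 and Il1b did not pass. Of 4 alarmin receptors 3 had a positive difference, and Tlr4 alone passed, at 0.82 ± 0.19 (adjusted p = 0.0395). The negative one was Bsg, at -0.65 (limma, adjusted p = 0.068). The 4 receptors together summed to 308 to 370 FPKM in PLX muscles and 427 to 529 FPKM in control muscles. Of 5 protease inhibitors the stefin Stfa2l1 rose by 1.50 ± 0.31 (adjusted p = 0.0315). Among 9 other S100 genes none rose and S100a1, an S100 protein of muscle fibres, fell by 0.76 on the log2 scale (SE 0.19, adjusted p = 0.0463).

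**Figure D5:**
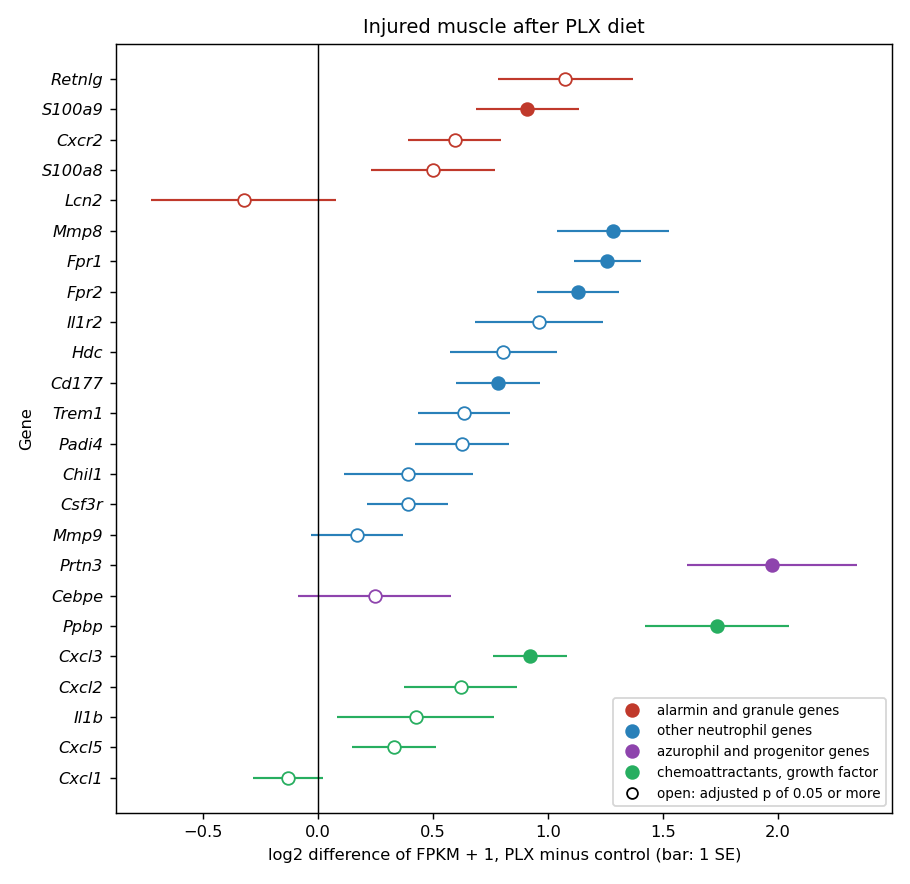
Log2 difference of FPKM + 1 between PLX and control diet in injured muscle, PLX minus control, with bars of 1 SE, for genes tested of 4 lists. Filled points passed an adjusted p under 0.05 (limma), open points did not, and Lcn2 and Cxcl1 are the 2 genes to the left of 0.

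Markers of other cells moved with the diet as well. Monocyte markers summed to 1122 to 1195 FPKM in PLX muscles and 331 to 428 FPKM in control muscles, and 7 of 9 rose, among them Ly6c2 by 2.73 ± 0.36 (adjusted p = 0.0165) and Plac8 by 2.64 ± 0.38 (adjusted p = 0.0176). S100a8 and S100a9 are made by monocytes too. Of 10 macrophage markers 3 rose, with sums of 746 to 1948 FPKM in PLX and 695 to 1014 FPKM in control muscles. Muscle fibre markers (6 genes) summed to 18876 to 24777 FPKM in PLX and 44258 to 58182 FPKM in control muscles, and Ckm (-1.28, adjusted p = 0.0396) and Tnnt3 (-1.32, adjusted p = 0.0419) fell. The part of these cells in the S100a9 difference was not tested. In whole muscle, more cells of a type and more RNA per cell cannot be told apart. Rescaling libraries to the same column sum moved the median of all genes from -0.018 to 0.29. S100a9, Retnlg, Cxcr2 and S100a8 were above that median under either scaling, and Lcn2 was below it under both.

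The fitted difference between 18 h and 12 h was negative for all 5 genes, and none passed with all libraries. The log2 difference, 18 h against 12 h with diet as a term, was -0.96 ± 0.21 for Cxcr2 (adjusted p = 0.109), -0.92 ± 0.29 for S100a8 (adjusted p = 0.173), -0.77 ± 0.43 for Lcn2 (adjusted p = 0.358), -0.67 ± 0.24 for S100a9 (adjusted p = 0.204) and -0.63 ± 0.31 for Retnlg (adjusted p = 0.313). With limma 0 of 5 were called, where 0.00864% of genes were higher and 0.0691% lower (0.0777%, or 9 genes, either way), and 2279 genes had an unadjusted p under 0.05. With diets pooled, the 2 times overlapped in all 5 genes, while 9.48% of all genes had every 18 h library above every 12 h library and 10.2% had every one below. S100a8 passed without the 12 h control library (-1.37, adjusted p = 0.0406). The Lcn2 difference was between -1.54 and -0.00016 over the libraries left out in turn, nearest 0 without the 12 h PLX library, and 1 of the control libraries of 18 h, at 103 FPKM, lay above the 12 h control. There were 4 libraries at 18 h and 2 at 12 h, 1 for each diet.

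The diet effect itself was not shown to differ between the times for any of the 5. The log2 difference between diets was 0.72 at 12 h and 1.01 at 18 h for S100a9, 1.06 and 1.08 for Retnlg, 0.74 and 0.52 for Cxcr2, 1.10 and 0.20 for S100a8, and 0.70 and -0.83 for Lcn2. With limma 0 of 5 passed the test of that change, where 0.0605% of genes did, or 7 genes (0.0432% with a positive and 0.0173% with a negative change), and 2701 genes had an unadjusted p under 0.05. Lcn2 had the largest change, -1.54 ± 0.65 (adjusted p = 0.231). There was 1 library per diet at 12 h.

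Over the 12 whole-muscle libraries, centred within each experiment, the genes whose log2(FPKM + 1) was most like that of S100a8 among 9785 were Pwwp2b (Pearson r = 0.939), Ctgf (0.844), Adpgk (0.805), Tcea2 (0.805) and 6430548M08Rik (0.789). S100a9 ranked 9th, with r = 0.758, from 0.739 within mdx muscle and 0.789 within injured muscle. Lcn2 had r = -0.058 over both, from -0.804 within mdx muscle and 0.656 within injured muscle, and so did not follow S100a8 across the experiments. Each of these is a description over 6 or 12 libraries that share diets and differ in depth. S100a8 was highest in PLX replicate 3 of mdx muscle (4.30 FPKM) and in the 12 h PLX library of injured muscle (901 FPKM). The weight of these libraries in the correlations was not tested.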

How the data were processed

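RNA was sequenced as paired reads from stranded mRNA libraries (NEBNext Ultra II, NextSeq 500), per the labels' protocols. The submitters' processing notes name bcl2fastq, Bowtie, STAR, Cufflinks and mm10, with no role for either aligner. The authors deposited FPKM for 4 experiments, with 24338 (resident), 16836 (infiltrating), 24340 (mdx) and 24313 (injured) genes used. Left out were 50 rows with date-like names among infiltrating cells and injured muscle, and 2 overwritten rows among resident macrophages. The row of alignment numbers of the infiltrating cells was also set aside. Values were used as deposited.

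Groups follow the labels. FPKM are not counts, so PLX was compared with control diet by limma 3.58.1 (R 4.3.3) on log2(FPKM + 1), for genes averaging at least 1 FPKM, with p-values adjusted by Benjamini-Hochberg over all genes tested and a threshold of 0.05. Fold changes of low genes are understated on that scale. In injured muscle hours after injury were a term, and the change of the diet effect was an interaction. The method was tested on simulated data. Sorted cells had no test. A 2-fold rule on FPKM + 1 was used there, and day 4 had to pass against both of its libraries. Adjusted p-values in the text are limma's and two-sided.

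The 10 genes and all 13 gene lists were chosen with earlier results of these data known. The rule for named genes was every member in every library, the list genes past the threshold and the 5 genes most like S100a8. A list gene past the threshold is counted but not reported by name here. Other genes of the lists that are named without passing, and single list genes described in sorted cells, were chosen after their values were seen. Alternatives were pseudocount 0.1, no filter, a filter of 5 FPKM, rescaling to 1 column sum, quantile normalization, a reporter covariate, 18 h alone, a block by mouse number and leaving out each library. Promoters are from RefSeq (all 10 matched).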

Additional observations from a re-analysis of the deposited data

Results flagged for a closer look

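The PLX effect on Lcn2 in injured muscle was flagged because its sign differed between 12 h and 18 h. At 12 h Lcn2 was 126 FPKM in the PLX muscle, against 76.9 FPKM in the control muscle, a log2 difference of 0.70. At 18 h it was 57.2 and 31.8 FPKM in PLX muscles, against 57.4 and 103 FPKM in control muscles, a log2 difference of -0.83. Replicate 1 of PLX and replicate 1 of control were nearly equal there, so that difference rested on replicate 2 of each diet. The change between the times was -1.54 ± 0.65 (SE) and did not pass (limma interaction, adjusted p = 0.231). Over the settings in which it could be computed it was between -1.95 and -1.12, with adjusted p between 0.138 and 0.632. Control replicate 2 of 18 h, the highest of the 18 h libraries in Lcn2, also had the highest red cell marker sum of the 6, at 7987 FPKM, and a part of that in the result was not tested.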

How the results depend on the processing

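Counts of genes past the threshold moved widely with the settings. In mdx muscle 16 genes passed, against 1 with no filter, 32 after rescaling, 7 after quantile normalization, 8 with the reporter covariate and 0 to 120 over libraries left out, with 0 of the 10 neutrophil genes in each. For diet in injured muscle 1349 passed, against 5 with no filter, 2417 after rescaling, 2326 with 18 h alone and 0 to 2246 over libraries left out. Of the 10 neutrophil genes 1 passed there, against 0 with no filter, 2 with a filter of 5 FPKM, 3 after rescaling and 0 to 1 over libraries left out. For 18 h against 12 h 9 genes passed, against 2 with no filter, 26 with a filter of 5 FPKM, 2 after quantile normalization and 2 to 1901 over libraries left out (0 to 1 of the 10). For the change of the diet effect 7 passed, against 0 with pseudocount 0.1, 502 with no filter, 2 with a filter of 5 FPKM, 22 after rescaling and 2 to 9 over libraries left out. It could not be fitted without either 12 h library. Among GFP+ gates, MHCII+ over MHCII-, 1 of the 10 was past 2-fold with pseudocount 0.1, against 0. Without day 4 replicate 1, 3 of 5 genes were past 2-fold lower on day 4 over day 2 and 4 higher on day 6 over day 4; without replicate 2, 4 were higher and 5 lower, against 0 in both comparisons with all libraries. Of these 5 genes, Lcn2, Camp and Ngp reached the average only with day 4 replicate 1 counted. The cause of the moves of all these counts was not tested.

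Signs reversed for values that did not pass. Lcn2 was -0.61 to 0.039 over libraries left out in mdx muscle, and in injured muscle -0.83 to 0.061 and, after rescaling, 0.035. The change of the diet effect between times was, after rescaling and after quantile normalization, -0.11 and -0.26 for S100a9 and -0.37 and -0.25 for Retnlg. Over libraries left out it was -0.014 to 0.59 for S100a9, -0.56 to 0.60 for Retnlg and -0.57 to 0.15 for Cxcr2.

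Mouse numbers in the titles share a stem between diets, but the labels do not say what it marks. Deviations of same-stem libraries correlated at 0.287, 0.355 and 0.059 in mdx muscle and 0.275 in injured muscle, where there are 2 stems. All are positive, but 1 in mdx muscle is near 0 and no label ties the stem to a litter, batch or day, and the libraries were not treated as paired. With the stem as a replicate block 15 genes passed in mdx muscle and 462 in injured muscle, where 0 of the 10 neutrophil genes did (S100a9 0.91, adjusted p = 0.0883).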

Other observations

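In infiltrating cells S100a4, S100a6, S100a10 and S100a11 were highest on day 2, an order that S100a8 and S100a9 lacked. S100a4 was 1658 FPKM on day 2, 315 and 436 FPKM on day 4, and 486 FPKM on day 6. S100a6 was 891 FPKM on day 2, 206 and 274 FPKM on day 4, and 216 FPKM on day 6. S100a10 was 557 FPKM on day 2, 128 and 194 FPKM on day 4, and 161 FPKM on day 6, and S100a11 was 582 FPKM on day 2, 198 and 274 FPKM on day 4, and 226 FPKM on day 6. In all 4 genes day 2 was the highest and the day 4 libraries lay close together. There is 1 library on day 2 and 1 on day 6, and these genes were picked after their values were seen. The rest of the 11 other S100 genes are not described here. The share of all genes highest on day 2 was not counted.

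In resident macrophages the chemokine Cxcl2, a ligand of the receptor Cxcr2, was 2931 FPKM in MHCII+ GFP+ and 1328 FPKM in MHCII+ GFP- cells, and 2036 FPKM in MHCII- GFP+ and 624 FPKM in MHCII- GFP- cells. The cytokine Il1b was 529 FPKM in MHCII+ GFP+ and 150 FPKM in MHCII+ GFP- cells, and 244 FPKM in MHCII- GFP+ and 49.0 FPKM in MHCII- GFP- cells. Both had the GFP order of S100a8 and S100a9. There is 1 library per gate, and both were picked after their values were seen from the 8 chemoattractant and growth factor genes. The rest of that list is not described here, and the share of all genes in this order was not counted. Unlike the alarmins, both were also higher in the MHCII+ gate at either GFP level. The protease inhibitor Slpi in injured muscle was 79.6 FPKM at 12 h and 444 and 511 FPKM at 18 h in PLX muscles, against 92.4 FPKM at 12 h and 141 and 255 FPKM at 18 h in control muscles, and its diet difference did not pass (0.81, limma adjusted p = 0.190).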
